A study of Mus musculus with 6 samples.

Results

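The genes described here are 40 genes of glycolysis and of the response to low oxygen, chosen by name. They comprise glucose and lactate transporters, the enzymes from hexokinase to lactate dehydrogenase and the kinases that regulate them. Oxygen-sensing factors and a set of hypoxia-inducible targets are also included. Earlier results of these data were known when they were chosen, so their shares against all genes are not an independent comparison. All 40 were on the array, with 62 probes in all, and 39 of them passed a filter on signal, out of 14748 genes that passed it. To pass, a probe's sample signal had to be well above background in 3 or more arrays of the 6. Mxi1, a MYC antagonist induced by hypoxia, was above background on no array and is not described further. Slc16a1 and Car9 passed only through the 3 knockout arrays, being above background on 0 of the 3 wild-type arrays, so no fold is given for them.

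RNA came from newborn C57BL/6 mice at postnatal day 1, from kidney cells sorted for GFP and dsRED fluorescence. The knockout (KO) pups were Hoxb7cre+; Bdkrb2f/f; R26RtdTomato, and the wild-type (WT) pups were Hoxb7cre+; Bdkrb2+/+ with the same R26RtdTomato reporter, with 3 samples per genotype. Both genotypes thus carried the Cre and the reporter, and both came from animals on food with 5% sodium, so there was no group without salt. Hoxb7 drives Cre in the ureteric bud lineage, which forms the collecting duct, and Bdkrb2 encodes the bradykinin B2 receptor. The series text calls the replicates biological. The labels do not give the number of animals per sample, and litter and genotype cannot be told apart. The Bdkrb2 probe was above background on 0 of 6 arrays in either channel, so it gave no check of the genotype labels.

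Glycolysis turns glucose into pyruvate in the cytosol, and pyruvate is either reduced to lactate and exported or taken into mitochondria. In low oxygen the prolyl hydroxylases Egln1 and Egln3 slow down, the factors HIF-1alpha (gene Hif1a) and HIF-2alpha (gene Epas1) accumulate as proteins, and they raise transcription of most glycolytic genes and of targets such as Vegfa, Adm and Bnip3. In the kidney, distal segments and the collecting duct are known to use glycolysis, whereas the proximal tubule relies mainly on oxidative metabolism and makes glucose.

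Every array carried the sample RNA in Cy5 and the RNA of WT replicate 1 in Cy3, so each value below is a log2 ratio to that reference and the array of WT replicate 1 sets an RNA against itself. Ratios away from 0 on that array, such as -0.50 for Ddit4 and -0.40 for Tpi1, are technical, and no dyes were swapped. The part of such a deviation that all arrays share cancels when KO is set against WT, which is the quantity tested. How much is shared was not tested, and Ddit4 was at -0.086 and 0.016 on the other WT arrays. Sample signal was above background for 49.8% to 52.7% of probes on the WT arrays and 56.6% to 57.5% on the KO arrays, and the number of arrays limits the precision. All 6 arrays were on 1 slide, with the 3 KO arrays and WT replicate 1 in one row and WT replicates 2 and 3 in the other. Differences are given as KO minus WT ± SE from limma (n = 3 per genotype), and a gene is called different at an adjusted p under 0.05 over all 14748 genes.

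Most of the pathway was lower in the KO cells, with a small set of isoforms going the other way. Of the 39 members tested, 26 were called, 23 lower and 3 higher in KO, where 35.3% of all genes were called, 20% lower and 15.4% higher. Among the 37 members above background in both genotypes, the KO and WT values of 28 did not overlap, 25 below and 3 above, against 52.1% of all genes, 28.2% below and 24% above. The shares of all genes were not restricted to genes above background in both genotypes. Of the 60 member probes tested singly, 35 were called lower and 4 higher, where 25.3% of all probes were called, 14.2% lower and 11.2% higher. The median difference of the members was -0.57, against -0.02 over all genes. The 3 higher members were Hk2, Slc2a3 and Slc16a3, which are the inducible hexokinase, the GLUT3 glucose transporter and the MCT4 lactate exporter. The members of largest difference were Aldoa, Ldhb, Pfkp, Hk1 and Hk2, and 11 called members differed by at least 2-fold, against 8.52% of all genes.

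**Figure D1:**
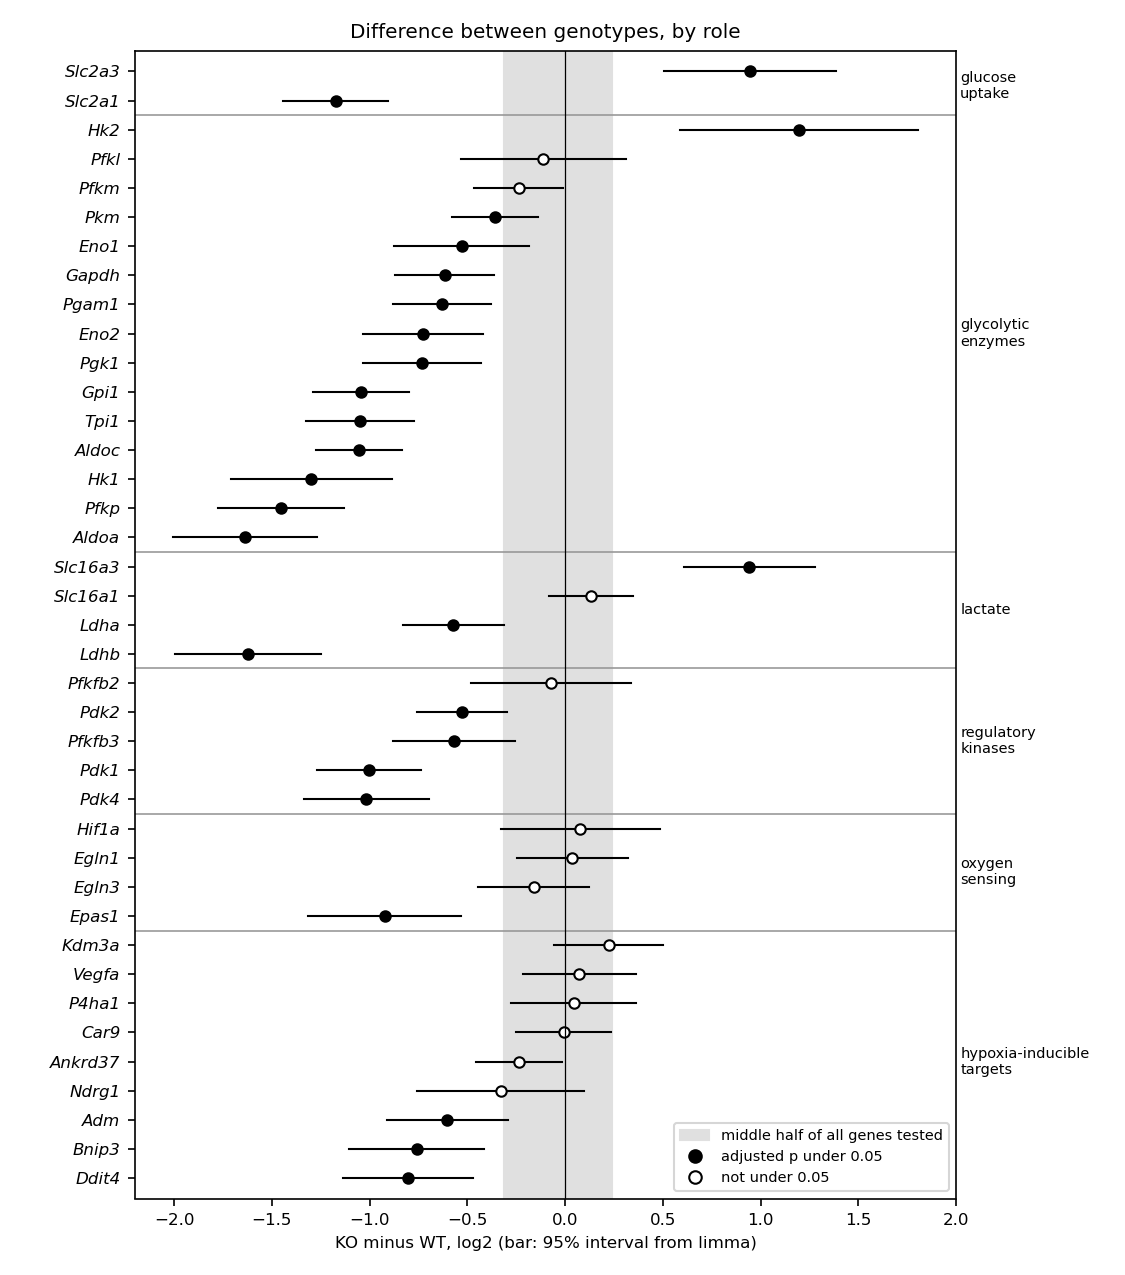
The difference between genotypes (KO minus WT, log2) is plotted for the 39 members tested, grouped by role and ordered by size, with the 95% interval from limma as a bar. Filled points are the 26 members called, and the grey band spans the quartiles of all genes tested, -0.31 to 0.24. The glycolytic enzymes lie mostly left of the band, with Hk2 alone among them on the right.

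By role, both glucose transporters were called, 1 lower and 1 higher, and of 4 lactate genes 2 were lower and 1 was higher. Among the 15 enzymes tested, 12 were lower and 1 was higher in KO, with a median difference of -0.73. Of 5 regulatory kinases, 4 were lower, with a median of -0.57. Of 4 oxygen-sensing genes 1 was lower, with a median of -0.06, and of 9 hypoxia-inducible targets 3 were lower, with a median of -0.24. Over all genes 35.3% were called, 20% lower and 15.4% higher, so the counts of these last 2 roles do not set them apart. With median centring 5 enzymes, 2 regulatory kinases, 1 glucose transporter and 1 lactate gene were lower, and Hk2, Slc2a3 and Slc16a3 stayed higher. No oxygen-sensing gene and no hypoxia-inducible target was called with it, where 26.5% of all genes were called. No difference between roles was tested.

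Cell markers differed between genotypes as well, to be read against 20% lower and 15.4% higher among all genes. Of the 17 general collecting duct markers tested 12 were lower and 1 was higher in KO, while 11 of 11 principal cell and 12 of 12 intercalated cell markers were lower. The higher one, named after its value was seen, was Lhx1, an early ureteric and nephron factor, at 0.83 (limma, adjusted p = 0.0499). Of 11 nephron progenitor markers 9 were higher, and of 13 stroma markers 11 were higher. The progenitor marker Tmem100 was above background on 1 WT array, and with the filter on all 6 arrays 8 of 10 progenitor markers were higher. In bulk RNA, fewer cells of a type and less RNA per cell cannot be told apart, and the part of cell composition in each difference given here was not tested.

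Promoter sequence was read for 37 of the 40 members from RefSeq windows of assembly GRCm38.p6, each spanning 250 bases before to 50 after a transcription start. HIF binds a core of ACGTG or GCGTG, and both were searched on both strands; CACGTG holds ACGTG on both strands and so counts as overlapping matches. Either core was present in 77.6% of the 58 member windows, against 58.6% of the 14830 windows of all genes tested. ACGTG alone was present in 53.4% of member windows, against 23.9%. The share with either core was 75.8% of 33 windows of members lower in KO and 80.0% of 20 windows of members not called, and both windows of higher members held one. The 4 windows that follow are shown because the genes share the core but differ in direction: Ldha (the upstream of its 2 starts in the table) and Pgk1 were lower in KO, and Hk2 and Slc16a3 were higher. Capitals mark each core, written as CACGT or CACGC where it lies on the other strand. A match is a description of the letters and not a binding site.
Ldha (chr7:46845554-46845853, + strand): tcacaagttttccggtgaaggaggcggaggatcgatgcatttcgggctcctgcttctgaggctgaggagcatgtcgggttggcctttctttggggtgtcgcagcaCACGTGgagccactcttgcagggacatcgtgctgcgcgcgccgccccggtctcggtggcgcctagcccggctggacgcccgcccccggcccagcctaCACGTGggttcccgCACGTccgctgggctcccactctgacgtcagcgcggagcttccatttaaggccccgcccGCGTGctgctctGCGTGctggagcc
Pgk1 (chrX:106186850-106187149, + strand): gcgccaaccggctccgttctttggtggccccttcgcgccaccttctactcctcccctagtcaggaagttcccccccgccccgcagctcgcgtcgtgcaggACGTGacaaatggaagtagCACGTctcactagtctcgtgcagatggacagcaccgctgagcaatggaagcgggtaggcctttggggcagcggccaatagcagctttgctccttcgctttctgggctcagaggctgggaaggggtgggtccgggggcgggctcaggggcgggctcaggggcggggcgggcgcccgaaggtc
Hk2 (chr6:82774405-82774704, - strand): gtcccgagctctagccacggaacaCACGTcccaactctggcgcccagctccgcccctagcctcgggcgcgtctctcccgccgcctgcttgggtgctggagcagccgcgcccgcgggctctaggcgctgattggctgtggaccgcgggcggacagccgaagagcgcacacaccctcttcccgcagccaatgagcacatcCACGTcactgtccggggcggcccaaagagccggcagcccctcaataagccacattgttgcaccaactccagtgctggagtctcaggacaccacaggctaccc
Slc16a3 (chr11:120948817-120949116, + strand): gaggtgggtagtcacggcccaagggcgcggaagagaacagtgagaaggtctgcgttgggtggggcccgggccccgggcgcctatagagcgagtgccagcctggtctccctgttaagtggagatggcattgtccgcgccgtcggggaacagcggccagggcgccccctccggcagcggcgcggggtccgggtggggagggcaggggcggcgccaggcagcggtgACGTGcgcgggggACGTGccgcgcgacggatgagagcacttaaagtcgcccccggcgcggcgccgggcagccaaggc

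At glucose entry the transporter pair went opposite ways. Slc2a1 encodes GLUT1, the broadly expressed transporter, and it had log2 ratios of 0.23, 0.038 and 0.34 in WT and -0.85, -1.00 and -1.05 in KO. All KO values lay below all WT values, a difference of -1.17 ± 0.12, or 2.26-fold lower (limma, adjusted p = 0.00032). Slc2a3 encodes GLUT3, a transporter of high affinity, and it had ratios of 0.083, -0.33 and -0.61 in WT and 0.89, 0.66 and 0.44 in KO. The groups did not overlap and KO was higher by 0.95 ± 0.19, or 1.93-fold (limma, adjusted p = 0.00653). Slc2a3 was dim in WT, with processed Cy5 signals of 76.35, 51.19 and 32.74, though above background on each array. With the slide row as a block the Slc2a3 difference was 0.58 and was not called (adjusted p = 0.121), and from Cy5 alone it was 1.90.

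Hexokinase traps glucose as glucose 6-phosphate, and its isoforms also split. Hk1, the housekeeping form, had ratios of 0.21, -0.053 and 0.39 in WT and -0.86, -1.46 and -1.03 in KO. It was 2.46-fold lower in KO, with a difference of -1.30 ± 0.18 (limma, adjusted p = 0.0012), and a second probe gave -1.06. Hk2, the insulin- and hypoxia-inducible form, had ratios of 0.10, 0.80 and 0.36 in WT and 2.17, 1.45 and 1.23 in KO. Every KO array was above every WT array, KO replicate 1 being the highest, and the difference was 1.20 ± 0.26, or 2.29-fold higher (adjusted p = 0.00951).

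**Figure D2:**
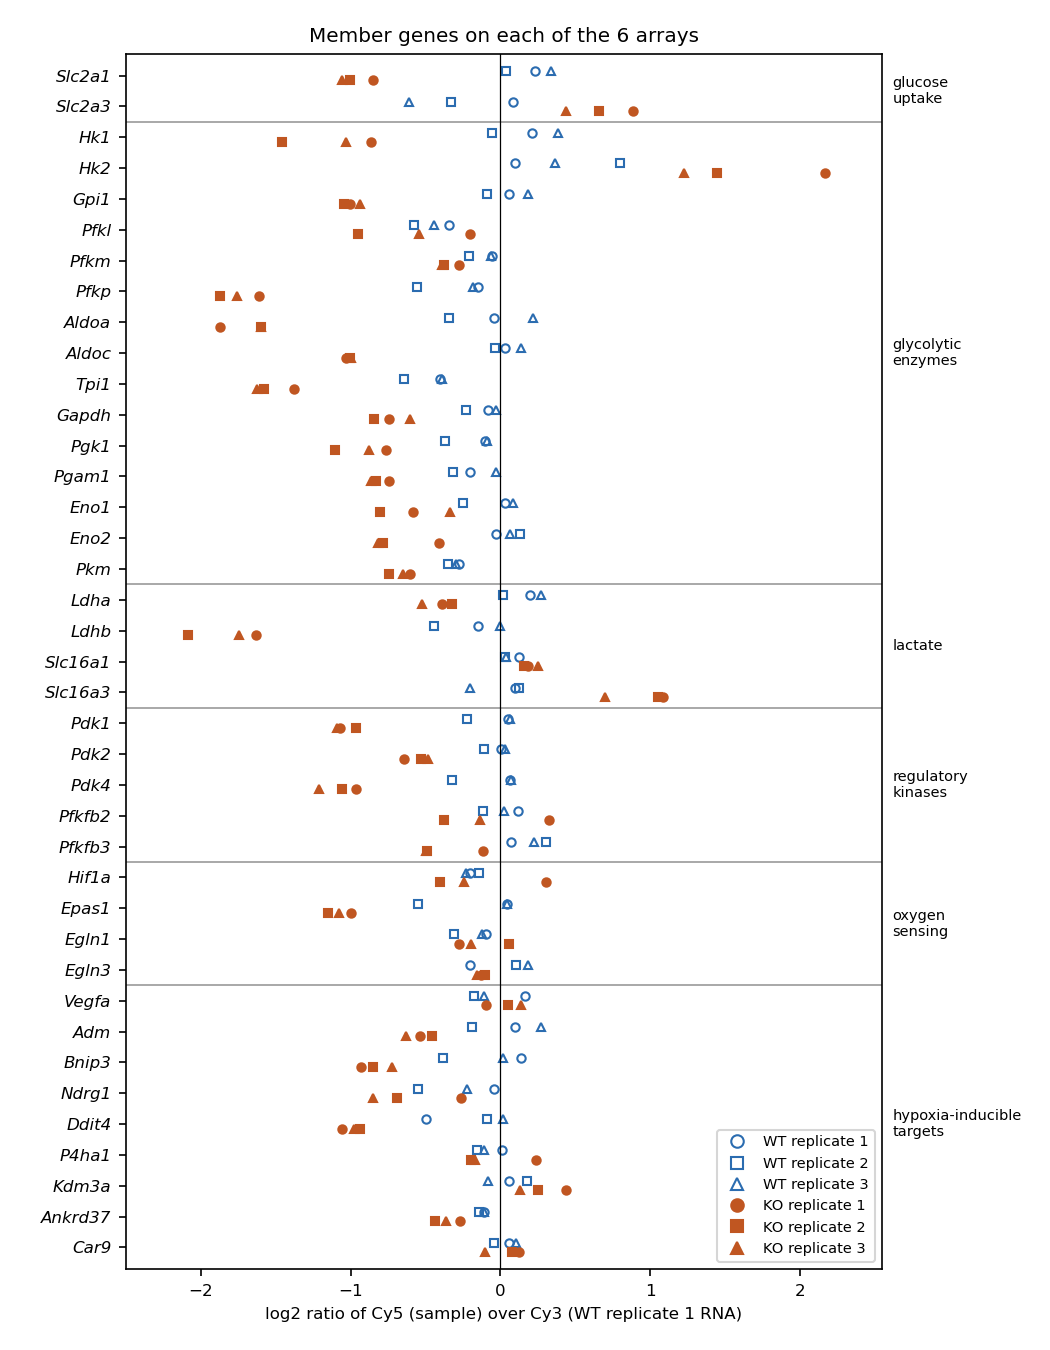
The log2 ratio of Cy5 (sample) over Cy3 (WT replicate 1 RNA) is plotted for each of the 39 members on each of the 6 arrays, with open blue symbols for WT and filled brown symbols for KO. Slc2a1 and Slc2a3, and Hk1 and Hk2, separate in opposite directions, whereas for Pfkl, Pfkfb2 and Hif1a the 3 KO arrays spread across the WT values.

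The steps from glucose 6-phosphate to triose phosphate included the largest decrease, that of Aldoa. Gpi1, which converts glucose 6-phosphate to fructose 6-phosphate, differed by -1.04 ± 0.11 (limma, adjusted p = 0.000352), and its 3 probes lay between -1.00 and -1.07. Phosphofructokinase, the committed step, has liver, muscle and platelet forms. The platelet form Pfkp had ratios of -0.15, -0.56 and -0.18 in WT and -1.61, -1.87 and -1.76 in KO, with no overlap and a difference of -1.45 ± 0.14 (adjusted p = 0.000292). A second, much dimmer Pfkp probe gave -0.24 and was not called (adjusted p = 0.336). The muscle form Pfkm differed by -0.24 (95% interval -0.47 to -0.012, adjusted p = 0.095) and the liver form Pfkl by -0.11 (-0.54 to 0.31, adjusted p = 0.664), so neither was called. With array weights Pfkm was called lower (adjusted p = 0.0274).

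Aldolase splits fructose 1,6-bisphosphate. Aldoa, its most widespread form, had ratios of -0.039, -0.34 and 0.22 in WT and -1.87, -1.60 and -1.60 in KO. This was the largest difference of all members, -1.64 ± 0.16, or 3.11-fold lower in KO (limma, adjusted p = 0.000305). Aldoc, known from brain, was lower by less, with a difference of -1.05 ± 0.10 (adjusted p = 0.000257). Tpi1, which interconverts the triose phosphates, differed by -1.05 ± 0.12 (adjusted p = 0.000542) and by -0.89 on a second probe.

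The enzymes of the lower, ATP-yielding steps were lower by smaller amounts. Gapdh, often used as a reference gene, had ratios of -0.082, -0.23 and -0.028 in WT and -0.74, -0.84 and -0.60 in KO, a difference of -0.62 ± 0.11 (limma, adjusted p = 0.00371). All 7 of its probes were called lower, between -0.40 and -0.62. Pgk1, the first ATP-forming step, was 1.66-fold lower with a difference of -0.73 ± 0.13 (adjusted p = 0.00381), and Pgam1, which moves the phosphate of 3-phosphoglycerate, was 1.55-fold lower with a difference of -0.63 ± 0.11. The enolases Eno1, the widespread form, and Eno2, the neuronal form, differed by -0.53 ± 0.15 and -0.73 ± 0.13. Pkm, pyruvate kinase, had the smallest called difference, -0.36 ± 0.094 (adjusted p = 0.02), with KO values of -0.61, -0.74 and -0.65 below WT values of -0.28, -0.35 and -0.30. Eno1 and Pkm were not called when WT replicate 1, WT replicate 3 or KO replicate 2 was left out, with adjusted p up to 0.107 and 0.0785. None of these lower-step calls held when arrays were centred on their median without loess, where Gapdh differed by -0.11 and Pkm by 0.037.

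Both lactate dehydrogenase subunits were lower in KO. Ldhb, the heart-type subunit associated with lactate oxidation, had ratios of -0.15, -0.45 and -0.0028 in WT and -1.63, -2.09 and -1.74 in KO, a difference of -1.62 ± 0.16, or 3.08-fold lower (limma, adjusted p = 0.00032). Ldha, the muscle-type subunit that favours lactate formation, had ratios of 0.20, 0.016 and 0.27 in WT and -0.39, -0.32 and -0.52 in KO. Its difference was -0.57 ± 0.11, or 1.49-fold lower (adjusted p = 0.00577). The other 2 Ldha probes gave -0.33 (adjusted p = 0.0599) and -0.62 (adjusted p = 0.16), and the call was also lost from raw Cy5, with median centring and with the slide row as a block.

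Slc16a3 encodes MCT4, the lactate exporter of glycolytic cells. It had ratios of 0.10, 0.13 and -0.20 in WT and 1.09, 1.06 and 0.70 in KO, without overlap. The difference was 0.94 ± 0.15, or 1.92-fold higher in KO (limma, adjusted p = 0.00201), and a second probe gave 0.90. Slc16a1, the more general carrier MCT1, had ratios of 0.13, 0.034 and 0.039 in WT, where it was not above background, and 0.18, 0.16 and 0.25 in KO. It passed the filter only through the KO arrays, so no test is read from it.

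The member kinases that gate pyruvate oxidation were lower together. Pdk1, Pdk2 and Pdk4 phosphorylate and inhibit the pyruvate dehydrogenase complex, Pdk1 being a HIF-1 target and Pdk4 the form raised by fasting. Pdk1 had ratios of 0.053, -0.23 and 0.062 in WT and -1.07, -0.96 and -1.09 in KO, a difference of -1.00 ± 0.11 (limma, adjusted p = 0.000542). Pdk4 differed by -1.02 ± 0.14 (adjusted p = 0.00115) and Pdk2 by -0.53 ± 0.10 (adjusted p = 0.00486). The genotype difference of Pdk2 was thus the smallest of the 3. Pdk3, a pyruvate dehydrogenase kinase outside the members and named after its value was seen, was not called. The Pdk3 difference was -0.058 (limma, adjusted p = 0.714), and its KO values overlapped the WT values. Pfkfb3, which makes the phosphofructokinase activator fructose 2,6-bisphosphate, had ratios of 0.071, 0.31 and 0.23 in WT and -0.12, -0.49 and -0.50 in KO. Its difference of -0.57 ± 0.14 was called (adjusted p = 0.0132) but was not without WT replicate 3 or KO replicate 2 (adjusted p up to 0.0546). Pfkfb2, a related bifunctional enzyme, was not called, with a difference of -0.074 and a 95% interval of -0.48 to 0.34.

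Of the HIF subunit genes, Epas1 was called lower in KO, on 2 of its 3 probes, and Hif1a was not called. Hif1a had ratios of -0.20, -0.14 and -0.23 in WT and 0.31, -0.40 and -0.24 in KO, so the KO values lay on both sides of the WT values. Its difference was 0.077 with a 95% interval of -0.33 to 0.48 (limma, adjusted p = 0.76). Epas1, best known from endothelium and interstitial cells, had ratios of 0.048, -0.55 and 0.043 in WT and -1.00, -1.15 and -1.08 in KO. It was 1.90-fold lower in KO, with a difference of -0.92 ± 0.17 (adjusted p = 0.00419). Its other 2 probes gave -0.74 (adjusted p = 0.00766) and -0.063 (adjusted p = 0.8), so the probes disagree. The probe that was not called was the brighter of these 2, with a mean processed Cy5 signal of 1850 against 112.9. In the same arrays 10 of 13 endothelial markers were lower in KO, with a median difference of -0.98, against 20% of all genes lower. Of 13 stroma markers 11 were higher, with a median difference of 2.055, against 15.4% of all genes higher. The part of either list in the Epas1 difference was not tested. The prolyl hydroxylases Egln1, at 0.037 (95% interval -0.25 to 0.32), and Egln3, at -0.16 (-0.44 to 0.12), were not called. These values are RNA, and HIF activity is set largely at the protein level, which was not measured.

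Of the 9 hypoxia-inducible targets outside glycolysis that were tested, 3 were called, all lower in KO. Over all genes 35.3% were called and 20% were lower. The 3 calls, of Ddit4, Bnip3 and Adm, were lost with median centring. Ddit4, an inhibitor of mTORC1 under stress, had ratios of -0.50, -0.086 and 0.016 in WT and -1.06, -0.94 and -0.98 in KO, a difference of -0.80 ± 0.14 (limma, adjusted p = 0.00389). Bnip3, which promotes removal of mitochondria, differed by -0.76 ± 0.15 (adjusted p = 0.00586), with another probe at -0.76 and a dim one at -0.19. Adm, the vasodilator peptide adrenomedullin, differed by -0.60 ± 0.13 (adjusted p = 0.0102), its KO values of -0.54, -0.45 and -0.63 lying below WT values of 0.10, -0.19 and 0.27.

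The other 6 targets were not called. Vegfa, the endothelial growth factor, had ratios of 0.17, -0.18 and -0.11 in WT and -0.10, 0.055 and 0.14 in KO, with a difference of 0.072 and a 95% interval of -0.22 to 0.36. A second Vegfa probe had the opposite sign, at -1.01 ± 0.35 (limma, adjusted p = 0.0695), with KO ratios of -1.82, -0.46 and -0.37. Ndrg1, a stress-responsive protein, was at -0.33 (adjusted p = 0.201) and Ankrd37 at -0.24 (adjusted p = 0.0908), and leaving out KO replicate 1 brought both under the threshold, at 0.0355 and 0.0429. Array weights did so too (0.0202 and 0.0258), and Ankrd37 was also called lower from Cy5 alone (0.0362) and from raw Cy5 at the 75th percentile or quantile normalised (0.0486 and 0.0389). P4ha1, a collagen prolyl hydroxylase subunit, was at 0.043, and Kdm3a, a histone demethylase, at 0.22 (95% interval -0.058 to 0.50). Car9, the tumour-associated carbonic anhydrase, had ratios of 0.061, -0.041 and 0.10 in WT, where it was not above background, and 0.12, 0.08 and -0.10 in KO. Its sign turned between alternatives. From Cy5 alone Car9 was called higher, but it passed the filter only through the KO arrays, so that call is not read as a difference.

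Because isoforms were measured on the same array, the gap between 2 of them does not depend on a shift common to the array. For 15 pairs the first gene's log2 ratio minus the second's was compared between genotypes by a two-sided exact permutation test, which with 3 against 3 cannot go below p = 0.10. Hk1 minus Hk2 was 0.11, -0.85 and 0.023 in WT and -3.03, -2.91 and -2.26 in KO. The gap moved from -0.24 ± 0.53 to -2.74 ± 0.41 (SD, n = 3; exact p = 0.10, 0.136 after Benjamini-Hochberg over the 15 pairs). Slc2a1 minus Slc2a3 was 0.15, 0.37 and 0.95 in WT and -1.74, -1.66 and -1.50 in KO. This gap moved from 0.49 ± 0.41 to -1.63 ± 0.12 (SD, n = 3; exact p = 0.10, adjusted 0.136). In both pairs every KO array lay below every WT array.

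Ldha minus Ldhb was 0.35, 0.46 and 0.28 in WT and 1.24, 1.77 and 1.22 in KO. Both genes were called lower, and Ldhb RNA was lower by more than Ldha RNA. Subunit protein was not measured. The gap grew by 1.05 (exact p = 0.10, adjusted 0.136). Pfkl minus Pfkp grew by 1.34 and Pfkm minus Pfkp by 1.21, since Pfkp was the form called lower, and Hif1a minus Epas1 grew by 1.00, each with non-overlapping arrays at the same exact p. These gaps rest on the brightest probe of each gene. The dimmer Pfkp probe (-0.24 between genotypes) and another Epas1 probe (-0.063) were not called, so the gaps would be smaller with them. The arrays also did not overlap for smaller gaps: Aldoa minus Aldoc (-0.58 between genotypes), Pdk1 minus Pdk2 (-0.48), Pdk2 minus Pdk4 (0.49) and Pfkfb2 minus Pfkfb3 (0.49). The pair of Slc16a1 and Slc16a3 was among the 15 adjusted over, but no value is given for it because Slc16a1 was not above background in WT. The gaps between Eno1 and Eno2, Pdk1 and Pdk4, Pfkl and Pfkm, and Egln1 and Egln3 overlapped between genotypes, with exact p from 0.30 to 0.90. After adjustment no pair passed 0.05, which this number of arrays does not allow.

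**Figure D3:**
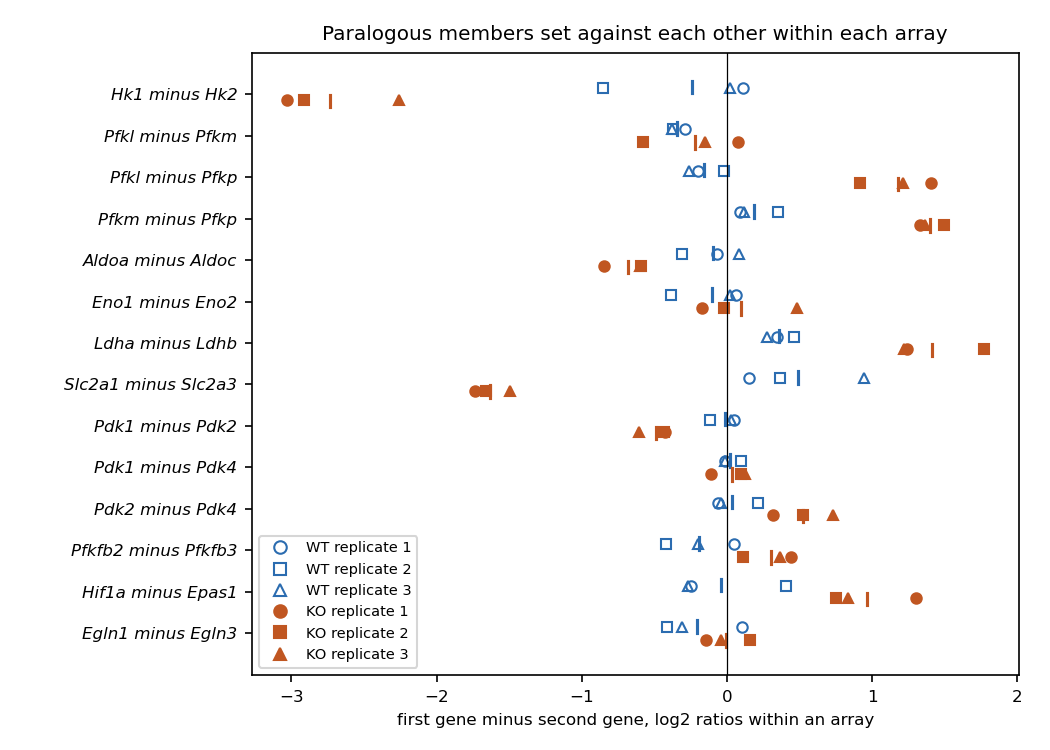
For each of 14 pairs of related members above background in both genotypes, the first gene's log2 ratio minus the second's is plotted within each array, with open blue symbols for WT, filled brown symbols for KO and a short bar at each group mean. Hk1 minus Hk2 (means -0.24 in WT and -2.74 in KO) and Slc2a1 minus Slc2a3 (0.49 and -1.63) stand farthest apart, while Pdk1 minus Pdk4 overlaps.

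Genes of the same pathways outside the 40 are given by list, to be read against the 20% lower and 15.4% higher among all genes. Entry of pyruvate into mitochondria was the list of lowest median: 7 of 10 genes tested were lower in KO and 0 higher, with a median of -0.63. Its examples were Mpc1 and Mpc2, the subunits of the mitochondrial pyruvate carrier, at -1.21 and -1.25, and Pdhb and Pdhx, components of pyruvate dehydrogenase, at -0.85 and -0.63. Of 21 further glycolytic and hexose or lactate genes 9 were lower and 1 was higher, with a median of -0.30. The lower ones included Hkdc1, a hexokinase family member, at -1.80, Pgam2, the muscle phosphoglycerate mutase, at -2.40, Slc16a7, the lactate and pyruvate carrier MCT2, at -1.23, and Ldhd, which oxidises D-lactate, at -1.16. The higher one, named after its value was seen, was the transporter Slc2a10, with ratios of 0.082, 0.013 and -0.23 in WT and 0.80, 0.63 and 0.68 in KO.

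The pentose phosphate branch, which supplies NADPH and ribose, had 1 of 8 genes lower (Taldo1, transaldolase, -0.84) and 1 higher (Rpia, ribose 5-phosphate isomerase, 0.59), with a median of -0.14. Gluconeogenesis had 1 of 8 genes lower (G6pc3, -0.62) and 0 higher. Other oxygen-sensing genes had 2 of 15 lower (Egln2, another prolyl hydroxylase, -0.41, and Os9, -0.51) and 0 higher, with a median of -0.06. Among 39 other hypoxia targets 13 were lower and 8 higher. The higher ones include Lox, which was above background on 0 of the 3 WT arrays and so passed only through the KO arrays. With the filter on all 6 arrays 38 of these targets were tested, 13 lower and 7 higher. Higd1a, a mitochondrial protein, was lower at -1.10, and P4ha2, a collagen prolyl hydroxylase subunit, Cxcr4, a chemokine receptor, and Tgfb3, a growth factor, were higher at 1.19, 0.83 and 1.87. Over all these lists 33 genes were lower and 10 higher, or 33 and 9 with the filter on all 6 arrays. The pentose phosphate, gluconeogenesis and oxygen-sensing lists each had a share of lower genes under that of all genes. With median centring 11 were lower and 13 higher, the medians of gluconeogenesis, pentose phosphate, oxygen-sensing and other hypoxia target lists turned above 0 (0.079 to 0.27, where the median of all genes was 0.25), and pyruvate entry kept 2 lower; with the slide row as a block 19 were lower and 5 higher.

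The marker lists show what moved alongside. General collecting duct markers had median ratios between -0.08 and 0.09 on the WT arrays and between -1.54 and -0.91 on the KO arrays, and the log2 of their summed Cy5 signal over each array's 75th percentile lay between 8.40 and 8.62 in WT and between 6.66 and 7.15 in KO. Aqp2, the water channel of principal cells, differed by -1.67, and Hoxb7, whose promoter drives the Cre, by -0.69. All tested principal and intercalated cell markers stayed above background on the 3 KO arrays, as did all tested loop and distal, proximal tubule, endothelial and erythroid markers. Stroma markers had medians of 0.11, -0.71 and -0.89 in WT and between 1.14 and 1.59 in KO, with summed signals of 4.22 to 5.81 and 7.16 to 7.23. Nephron progenitor markers had medians of -0.16 to 0.13 in WT and 1.54 to 2.20 in KO, with summed signals of 5.21 to 5.43 and 6.32 to 7.20.

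Markers of loop and distal tubule were lower in 11 of 11 (median -1.65) and of erythroid cells in 6 of 6 (median -2.46). Slc4a1 is in both the erythroid and the intercalated cell list. Of proximal tubule markers 4 of 15 were lower (median -0.40), where 20% of all genes were lower. Of immune markers 9 of 11 were higher and 1 was lower (median 0.94), where 15.4% of all genes were higher. The lower one, named after its value was seen, was Ptprc, which encodes the general leukocyte marker CD45, at -0.43 (limma, adjusted p = 0.0152). With the slide row as a block 0 immune markers were called and the stroma median was 1.12, and over all 19 alternatives the calls of proximal tubule markers ranged from 1 to 10 lower. WT replicate 2 stood apart, with medians of -1.06 for proximal tubule and -1.30 for erythroid markers against -0.20 to 0.21 on the other WT arrays, and it gave the lowest WT ratio for 30 of the 39 members, where it was the lowest WT array for 37.2% of all genes. Without that array 23 members were called lower and 3 higher, and the members' median difference was -0.63. No tested marker list was below background on all arrays, and the lists' part in the members' differences was not tested.

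**Figure D4:**
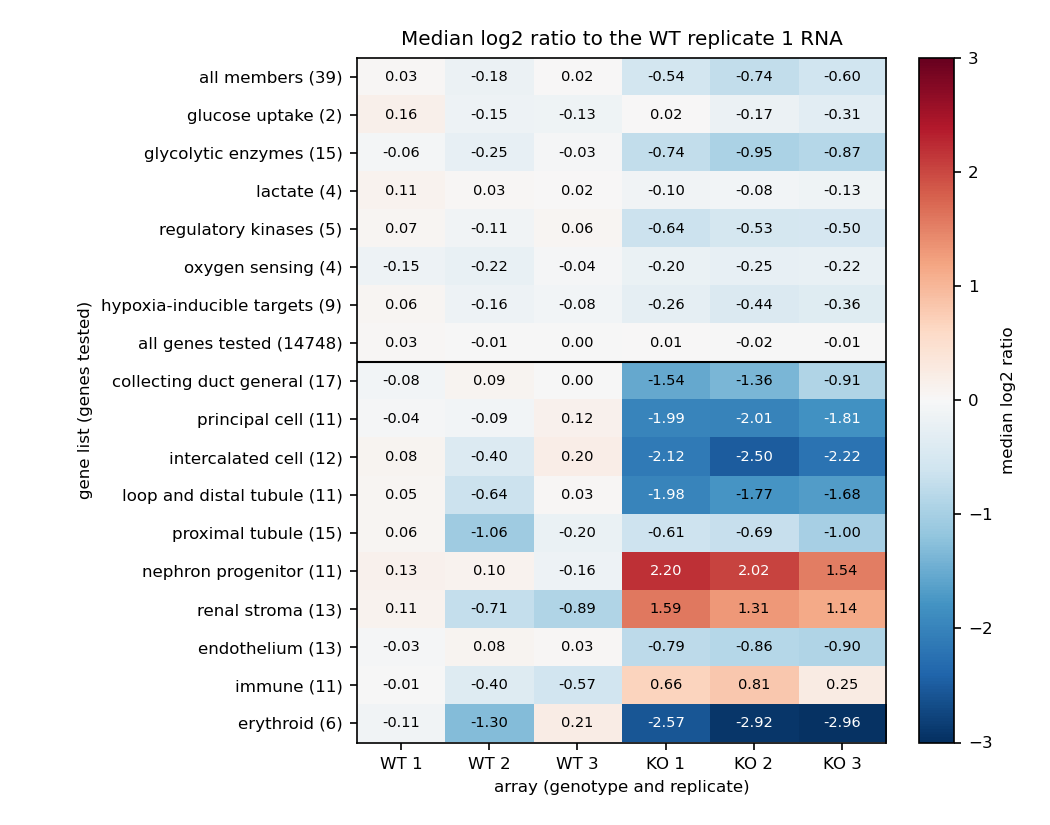
Each cell gives the median log2 ratio to the WT replicate 1 RNA on 1 array for the members by role (upper block) and for cell type markers (lower block), with the number of genes tested in brackets. The glycolytic enzymes fall between -0.74 and -0.95 on the KO arrays, where collecting duct, principal and intercalated cell markers are lower still and progenitor and stroma markers are higher.

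The scaling of the arrays moved the sizes. Under median centring without loess the members' median difference was -0.11 in place of -0.57; that of all genes was 0.25 in place of -0.02, so the members lay at -0.36 relative to it. It left 12 members called, 9 lower and 3 higher, and the share of called genes that were higher in KO went from 43.5% to 74.4%. The 14 calls lost with it were those of Gpi1, Gapdh, Pgk1, Pgam1, Eno1, Eno2, Pkm, Ldha, Pdk2, Pfkfb3, Epas1, Adm, Bnip3 and Ddit4. The slide row as a block ended 10 calls, those of Slc2a3, Pgam1, Eno1, Eno2, Pkm, Ldha, Pdk2, Pfkfb3, Adm and Ddit4. Pkm was also lost from Agilent's own ratio and raw Cy5, and Eno1 and Pkm with a normexp offset of 0. Over the 19 alternatives run, 11 of the 26 members were called each time: Slc2a1, Hk1, Pfkp, Aldoa, Aldoc, Tpi1, Ldhb, Pdk1 and Pdk4 lower, and Hk2 and Slc16a3 higher.

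**Figure D5:**
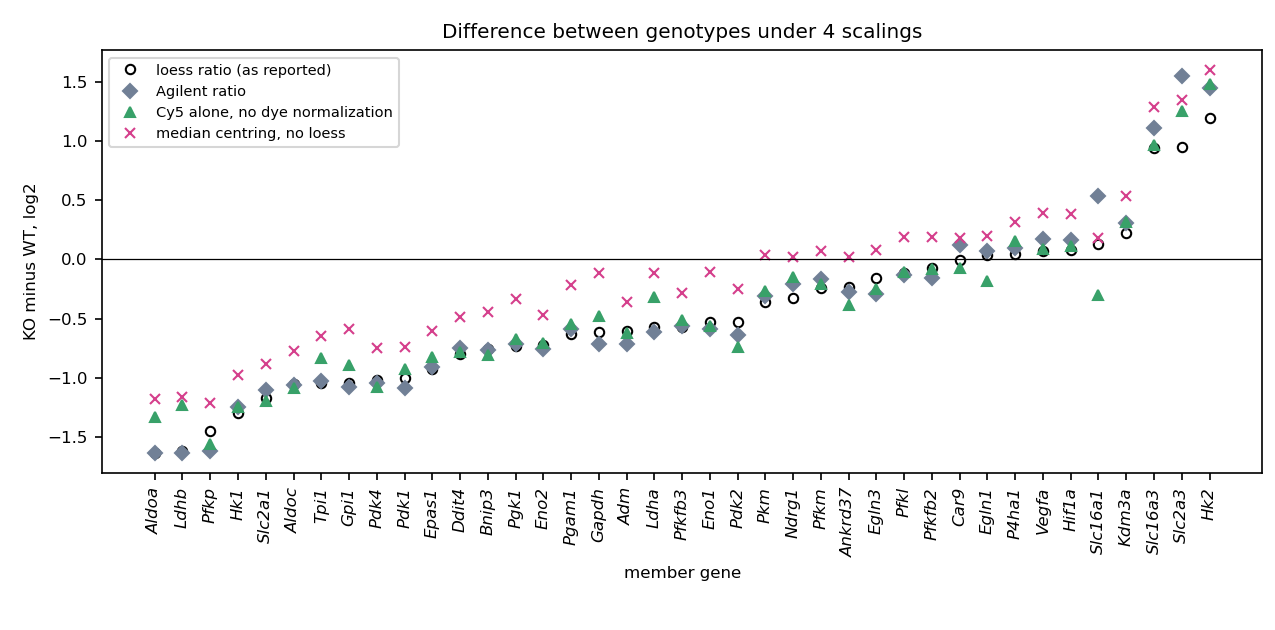
The difference between genotypes (KO minus WT, log2) is plotted for the 39 members under 4 scalings: the loess ratio used throughout, Agilent's own ratio, the raw Cy5 signal alone, and median centring without loess. Members from Aldoa to Pdk1 lie below 0 and Slc16a3, Slc2a3 and Hk2 above 0 under each scaling plotted, and the crosses for median centring lie above the loess values.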

How the data were processed

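RNA of 3 KO and 3 WT samples was measured on 6 Agilent 2-colour arrays. The deposited files hold median spot and background intensities in Cy5 and Cy3, written by Agilent Feature Extraction 10.7.3.1 per the file headers (6.1 per the submitters' processing notes); the series text calls the experiment single colour. The deposited log10 ratio is processed Cy5 over Cy3, per the file headers, and the authors' matrix holds the same log10 ratios rounded, within 0.00499 of the scanner files, each column with a median of 0 and oriented Cy5 over Cy3. Agilent's processed Cy5 intensities, deposited by the authors, were used for one alternative and the summed marker signals.

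Median intensities were corrected by normexp (offset 50), converted to log2 ratios and normalised by loess within each array, with controls at weight 0 and 196 to 403 spots flagged as outliers per array left out; mean intensities had been intended. Probes were matched by accession to RefSeq GRCm38.p6 (27503 of 55681 named), and 117 with a missing value were left out. A probe needed Cy5 well above background on at least 3 of 6 arrays, and the brightest probe stood for a gene. KO and WT were compared by linear models with moderated variances (limma 3.58.1, R 4.3.3; lmFit, then eBayes with 3.97 prior and 4 residual degrees of freedom), with Benjamini-Hochberg adjustment over 14748 genes, or over 29808 probes where a gene's further probes are given. The script was tested on simulated data. Members and lists were chosen with earlier results of these data known. Named genes are all 40 members, up to 4 called genes of smallest unadjusted p from each other pathway list, and markers that define the labelled cells; values on every array are given by rule for the 5 called members of largest difference and for isoform pairs, and for further members and genes chosen after their values were seen.

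Replicates with the same number were not taken as paired: their deviations correlated by 0.13, 0.083 and 0.20. P-values measure the spread between these samples, whose animals are not stated. Alternatives changed the ratio, scaling, filter, probe choice, offset, blocks, array weights and replicates; raw Cy5 scalings were chosen after seeing the data.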

Additional observations from a re-analysis of the deposited data

How the results depend on the processing

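Median centring without loess and the slide row as a block moved the count of called members most. With median centring 3908 of all genes were called, against 5210, and 12 members, 9 of them lower, the members' median difference was -0.11, 24 other pathway genes were called in place of 43, and 14 member probes in place of 39. With the slide row as a block, which sets KO against WT replicate 1 alone, 2213 genes and 16 members were called, 14 members lower, with 24 other pathway genes and 16 member probes. Leaving out 1 array at a time gave 3240 to 5704 genes called (3240 without WT replicate 3), 23 to 28 members called, 20 to 25 of them lower, and 32 to 46 other pathway genes. Array weights gave 6624 genes and 29 members called.

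Of the members whose sign turned, Pkm was the only one called in the reported comparison, and it was not called where it turned. With median centring the differences were 0.19 for Pfkl, 0.071 for Pfkm, 0.037 for Pkm, 0.18 for Pfkfb2, 0.083 for Egln3, 0.017 for Ndrg1, 0.020 for Ankrd37 and 0.18 for Car9. Car9 was 0.12 from Agilent's log ratio and the authors' matrix, 0.56 from Cy5 alone and 0.18 from quantile-normalised raw Cy5. None of these Car9 values is read as a difference, since Car9 was above background on no WT array. With the slide row as a block Egln1 was -0.043, Egln3 0.072, Vegfa -0.14 and P4ha1 -0.052, and the mean of its probes put Vegfa at -0.47. Array weights put Hif1a at -0.076 and P4ha1 at -0.068. Raw Cy5 gave -0.30 and -0.021 for Slc16a1 and -0.19 and -0.0097 for Egln1, at the 75th percentile and quantile normalised. Leaving out an array put Car9 between -0.052 and 0.061, Egln1 between -0.061 and 0.10, Hif1a between -0.13 and 0.22, P4ha1 between -0.097 and 0.12, Pfkl between -0.29 and 0.081 and Pfkfb2 between -0.27 and 0.084. The gap of Pdk1 minus Pdk4 was -0.045 from Agilent's log ratio, -0.044 from the authors' matrix and -8.6e-05 from Cy5 alone. The causes were not tested, beyond the fewer arrays in the fits that leave one out.

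The numbers of the replicates were checked as a pairing and not used as one, since 1 of the 3 same-numbered correlations was under 0.1, although every sample correlated best with its own number. With the replicate number as a block 5128 genes and 26 members were called, 23 lower and 3 higher, so that block changed no member's call. Dim probes limit Slc16a1, Car9 and the further probes of Pfkp and Bnip3. Slc2a3 in WT and Egln1 were also dim, though above background on every array.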
